A study of Arabidopsis thaliana with 43 samples.

Results

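The enzymes that fix carbon dioxide in the chloroplast were followed at the transcript level through heat acclimation and heat shock in Arabidopsis thaliana leaves. The set held 10 nuclear genes chosen by name: the 4 genes of the Rubisco small subunit (RBCS1A, AT1G67090; RBCS1B, AT5G38430; RBCS2B, AT5G38420; RBCS3B, AT5G38410), Rubisco activase (RCA, AT2G39730) and 5 genes of Calvin cycle enzymes. The last were PRK (AT1G32060), GAPA (AT3G26650), GAPB (AT1G42970), SBPASE (AT3G55800) and HCEF1 (AT3G54050). All 10 were among the 33602 loci counted and among the 20980 that passed the filter on low counts. Leaves of Col-0 seedlings were sequenced as mRNA in 43 libraries from 22 plates, 1 plate for each of 11 time points in each of 2 batches, with the leaves of about 80 pooled seedlings per plate. The plate was the replicate (n = 2 per time point), and the usual 2 tubes of a plate were summed. All groups were of the cultivar Col-0, with no other genotype in the labels.

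T1 was taken on day 12 at dawn at 22 °C. T2, T3 and T4 came from plants warmed slowly from then on, after 3 h (38 °C), 6 h (45 °C) and 7.5 h (45 °C, at the end of 90 min at that temperature). T5 and T6 were acclimated plants of day 14 and day 16, back at 22 °C and sampled 7.5 h into the light. T9 was never heated and was sampled on day 16 at that hour. On day 16 plants were moved directly to 45 °C for 90 min, and T7 (acclimated) and T10 (non-acclimated) were taken at the end, 9 h into the light. T8 (acclimated) and T11 (non-acclimated) followed on day 18 at 22 °C. The written protocol numbers the acclimated stages of the shock differently in places, and the roles of T7 and T8 rest on the sampling temperature of each library (45 °C and 22 °C).

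Rubisco joins carbon dioxide to ribulose bisphosphate and is built of large subunits, encoded in the chloroplast genome, and small subunits, encoded by the RBCS family in the nucleus. Rubisco activase is an ATPase that removes inhibitory sugar phosphates from Rubisco, and in many plants it loses activity at temperatures that Rubisco itself withstands. The Calvin cycle then reduces the product and rebuilds the acceptor. GAPA and GAPB are the subunits of the plastid glyceraldehyde phosphate dehydrogenase, SBPASE and HCEF1 are the sedoheptulose and fructose bisphosphatases of the regeneration phase, and PRK makes the acceptor.

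The small subunit genes are close copies, which bears on how their reads could be assigned. RBCS1A (chr1:25048158-25049667, minus strand) stands alone, while RBCS1B (chr5:15383167-15385320, minus strand), RBCS2B (chr5:15380907-15382071, minus strand) and RBCS3B (chr5:15376988-15378642, minus strand) lie side by side (RefSeq annotation of TAIR10.1). Coding sequences were 97.3% identical between RBCS1B and RBCS2B and 89.9% between RBCS1A and RBCS1B. The longest coding stretch that the 3 chromosome 5 genes share is shown with its counterpart in RBCS1A, where capitals mark the 4 bases that differ. Reads from inside this stretch cannot tell the 3 genes apart.
RBCS1A: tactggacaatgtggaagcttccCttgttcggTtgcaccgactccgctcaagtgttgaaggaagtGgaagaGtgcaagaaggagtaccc
RBCS1B: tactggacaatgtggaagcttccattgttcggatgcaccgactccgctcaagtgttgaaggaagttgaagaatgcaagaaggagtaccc
RBCS2B: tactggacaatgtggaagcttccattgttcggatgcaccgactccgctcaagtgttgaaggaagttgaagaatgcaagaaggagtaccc
RBCS3B: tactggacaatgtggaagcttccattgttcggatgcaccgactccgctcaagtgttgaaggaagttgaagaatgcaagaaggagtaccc
These lines are the minus strand at chr1:25048559-25048647, chr5:15384447-15384535, chr5:15381300-15381388 and chr5:15377598-15377686. Of all stretches of 50 bases in the transcripts, 1.42% of those of RBCS1A occurred in another gene, against 13.9%, 21.4% and 14.6% for RBCS1B, RBCS2B and RBCS3B. The count files keep reads with several alignments on a summary line apart from the genes, so reads set apart there are missing from the counts of these genes, by an amount that can differ among the copies. The split of counts among the chromosome 5 genes is therefore uncertain.

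RBCS genes are known for an I-box and a G-box upstream of the coding region, elements of their response to light. In the 300 bases before the start codon, an I-box (GATAAG) followed by a G-box (CACGTG) within 30 bases was found in RBCS1A, RBCS2B and RBCS3B. Across the genome 14 of 27443 such windows held this pair (0.0510%). The lines below show it with both motifs in capitals, and for RBCS1B and RCA the nearest single elements.
RBCS1A: GATAAGattcatggaattatcttcCACGTG
RBCS2B: GATAAGattatggagttttctgcCACGTG
RBCS3B: GATAAGataatggagttttctgcCACGTG
RBCS1B: tcacaaaagaaaGATAAGATAAGggtgtca
RCA: ataaacatattcCACGTGgaccaatcaaaa
They begin 283, 239, 240, 182 and 263 bases before the start codon. In the RefSeq annotation the stretches of RBCS1A, RBCS3B and RCA lie inside the annotated gene. That of RBCS1B spans the start of its gene, and that of RBCS2B lies before it. RBCS1B held overlapping I-boxes and no G-box in its window, and RCA a G-box and no I-box. Of the other members, SBPASE held a G-box, GAPA and GAPB an I-box, HCEF1 both but not as the pair, and PRK neither. Alone, the G-box was in 6.23% and the I-box in 15.4% of windows. A heat shock element pair (GAANNTTC or TTCNNGAA) was in 22.7% of windows and in 0 of the 10 members' windows. Single elements were searched on both strands, and G-box matches read the same on either. For the pair, in the members and across the genome, the I-box was sought only on the strand of the gene.

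Libraries held 6355953 to 21304864 gene counts. HSP101, a heat-induced chaperone, had 5.86 and 7.54 TMM-CPM (CPM after TMM scaling, given here and later as batch 1 and then batch 2) at T9 and 42524 and 44214 at T4. T11, labelled 22 °C, stood apart with 3601 and 1241, near the 5554 and 2689 of T10, while T8 had 372 and 484. Results that rest on T11 are therefore given beside those that do not use it. Leaf markers of mesophyll (LHCB1.1, LHCB2.1, LHCA1 and CA1) were detected in 4 of 4 at every time point. Root markers summed to 325 and 305 TMM-CPM at T9, most of it PYK10, while COBL9 was at 0 counts at T4, T8 and T11. The share of reads aligned to several places was 3.75% to 24.2% in libraries of batch 1 and 13.3% to 44.2% in batch 2.

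At 22 °C before any heat, RBCS1A and RCA were the members with the most counts. RBCS1A, the main small subunit gene of leaves, had 12192 and 20419.5 TMM-CPM at T1 and RCA had 4033 and 7011. Per kilobase of coding sequence the T1 means were 30029 for RBCS1A and 3875 for RCA. Together the 10 genes held 4.18% and 5.49% of all gene counts at T1 and 1.07% and 1.67% at T8, the lowest pair of the regime. On the TMM scale every one of the 10 had its lowest mean at T8. The highest mean was at T4 for RBCS1A, RBCS1B, RBCS2B, RBCS3B, RCA, GAPA and GAPB, at T3 for SBPASE and at T10 for PRK and HCEF1. Plain CPM moved most of these, with the highest mean of RBCS1A and RBCS1B at T1, of RBCS2B at T2, of GAPA and GAPB at T10 and of PRK and SBPASE at T9, and with the lowest mean of HCEF1 at T4. With TMM the span from lowest to highest mean was 39.3-fold for RBCS3B, 35.1-fold for RCA and 3.96-fold for RBCS1B. In plain CPM these spans were 10.5-fold, 9.45-fold and 2.61-fold.

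**Figure D1:**
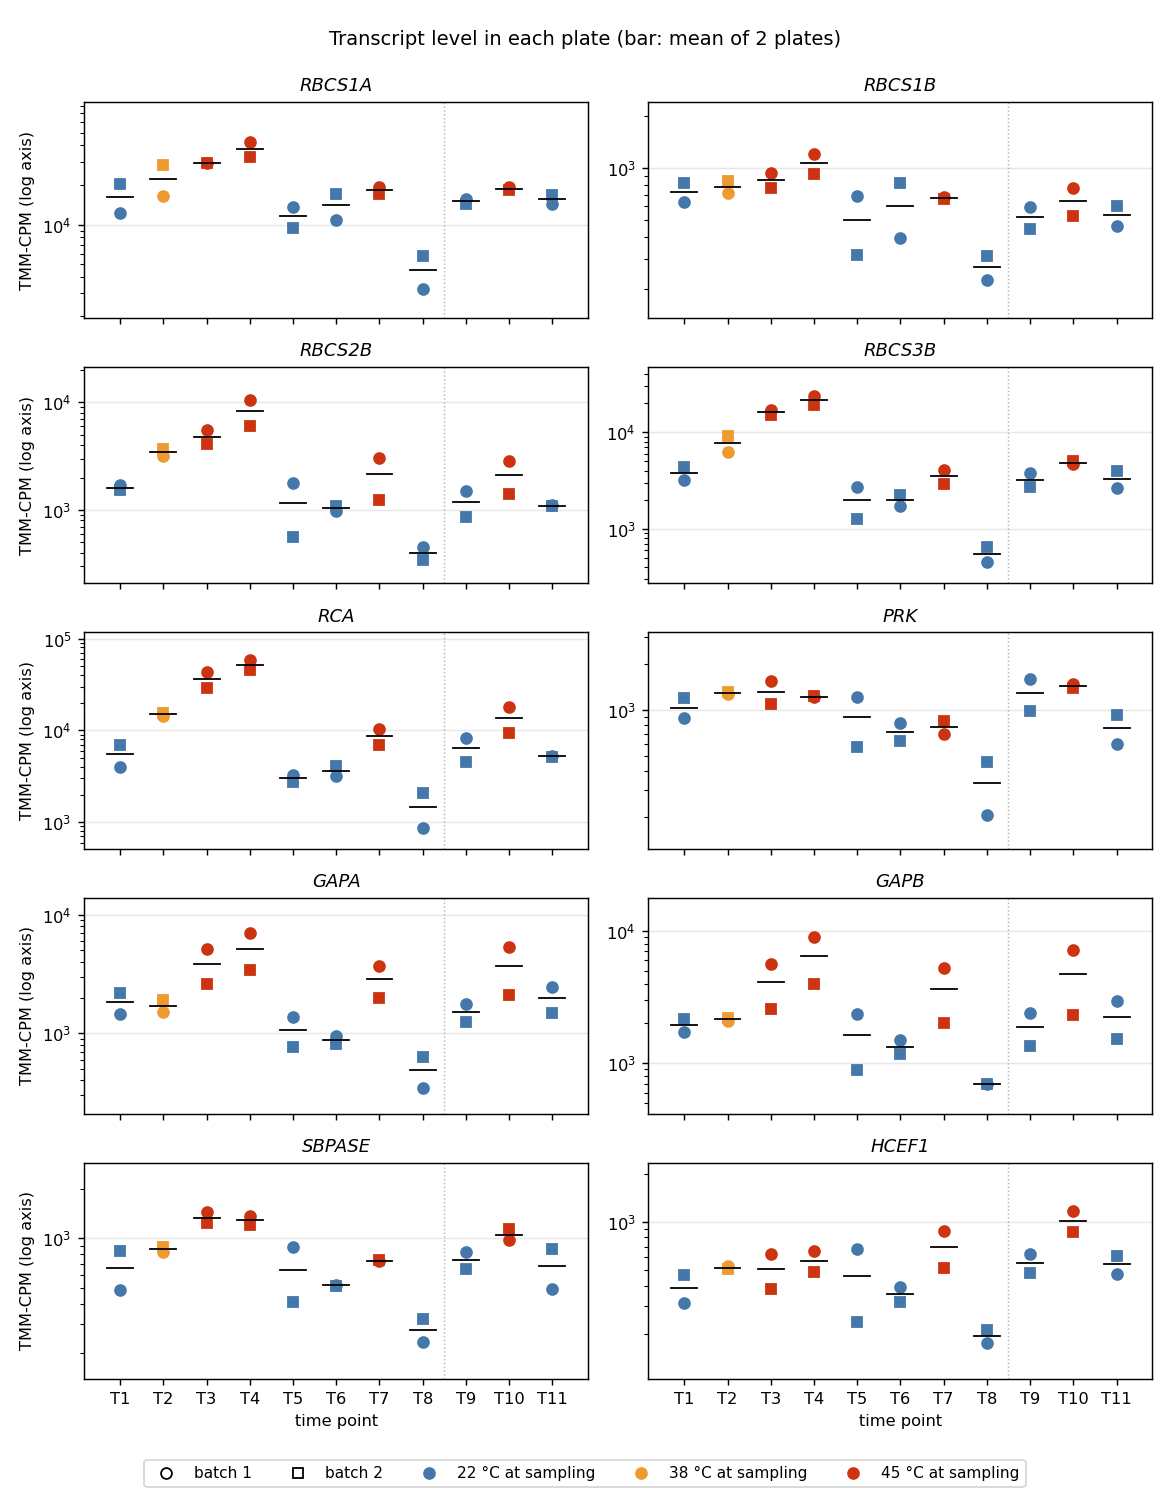
TMM-CPM of each of the 10 genes (log axes) at T1 to T11, with circles for batch 1, squares for batch 2, black bars for the mean of 2 plates and colour for the temperature at sampling. The T8 means are the lowest in all 10 panels, and on this scale RCA and RBCS3B climb from T1 to T4.

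The slow ramp to 45 °C asked how these transcripts change while leaves acclimate. RCA climbed with each step: 4033 and 7011 TMM-CPM at T1, 14489 and 15349 at T2, 43122 and 28851 at T3 and 58239.7 and 45028 at T4. With TMM each of these groups lay above the one before it with no overlap between plates. In plain CPM RCA had 16600 and 14975 at T2 and 18896 and 15255 at T3, so these plates overlapped. RBCS3B, a small subunit gene of the chromosome 5 group, went from 3169.9 and 4388 at T1 to 23709 and 19287 at T4. RBCS2B went from 1688 and 1534 to 10582 and 6038. In both of these genes the T4 plates lay above every T1 plate. PRK had 885 and 1194 at T1 and 1219 and 1236 at T4.

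After 3 h (T2 against T1) edgeR called 0 of the 10, when 2.01% of all loci rose and 0.744% fell. An unadjusted p under 0.05 was found in 2 of the 10 and in 2984 of 20980 loci. DESeq2 called 1 (RCA) as higher, when 727 loci rose and 448 fell. With edgeR RCA had a log2 change of 1.42 ± 0.61 (adjusted p = 0.294). At T3, RCA rose by 2.68 ± 0.63 (log2 change ± standard error, adjusted p = 0.00418), RBCS3B by 2.102 ± 0.51 and RBCS2B by 1.54 ± 0.48, and none fell. That is 3 of 10, against 18.3% of all loci that rose and 23.4% that fell. At T4, 5 of 10 rose and 0 fell, against 18.8% and 23.5% of all loci. These were RCA (3.20 ± 0.65, adjusted p = 0.00146), RBCS3B (2.51 ± 0.52), RBCS2B (2.30 ± 0.49), GAPB (1.53 ± 0.52) and GAPA (1.38 ± 0.53, adjusted p = 0.0471). T1 and T4 differ by 7.5 h of light as well as by heat, and the parts of hour and heat cannot be told apart. Leaving out T1 of batch 1 left 0 of the calls at T3, and 3 at T4 (RCA, RBCS3B and RBCS2B). Leaving out T4 of batch 1 or of batch 2 also left those 3.

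T9 was taken at the hour of T4 from plants 4 days older, and against it 5 of 10 rose and 0 fell. This comparison shares its T4 plates with the one against T1. RCA rose by 3.03 ± 0.64 (adjusted p = 0.00189) from 8220.2 and 4521 TMM-CPM, RBCS2B by 2.82 ± 0.50 (adjusted p = 0.000533) from 1489.6 and 859, and RBCS3B by 2.73 ± 0.52 from 3752 and 2722. GAPA and GAPB rose by 1.75 ± 0.53 and 1.74 ± 0.52. RBCS1A (1.34 ± 0.56, adjusted p = 0.0663) and RBCS1B (1.03 ± 0.42, adjusted p = 0.0607) did not pass, nor did SBPASE (0.79 ± 0.40), HCEF1 (0.04 ± 0.41) and PRK (-0.08 ± 0.45). Of all loci 18.7% rose and 24.2% fell. Without T4 of batch 1, T9 of batch 1 or T9 of batch 2, the calls of RCA, RBCS2B and RBCS3B stood and those of GAPA and GAPB did not.

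The size and sign of these changes depended on the scaling. With plain library size scaling the median of all loci moved to -2.11 at T4 against T1 and -2.02 against T9, from -0.27 and -0.30 with TMM. On that scale at T4 against T9, RCA (1.27 ± 0.43, adjusted p = 0.0144), RBCS2B (1.07 ± 0.37) and RBCS3B (0.98 ± 0.38) still rose. PRK (-1.82 ± 0.45), HCEF1 (-1.70 ± 0.38) and SBPASE (-0.96 ± 0.38) fell, and GAPA and GAPB were at -0.02 ± 0.40 and -0.02 ± 0.37. Of all loci 3.38% rose and 74.8% fell on that scale. Against T1, RCA rose by 1.38 ± 0.43 and PRK, HCEF1, RBCS1B and SBPASE fell (1 and 4 of 10, against 3.38% and 76.4%). At T3 RCA rose and RBCS1B, HCEF1 and PRK fell (1 and 3 of 10), against 3.63% and 71.1%. At T4 against T9 all 10 genes lay above the median of all loci, and the median of the 10 lay 1.83 above it with TMM. A scaling moves all loci of a plate alike, so this distance hardly differs between TMM and library size. The authors' deposited log2 table gave other directions. In limma on those values, T4 against T1 had RCA at -0.26, RBCS3B at -1.06 and RBCS2B at -0.82, and 0 of 10 rose while 5 fell, beside 17% and 19.6% of the loci in that table. Against T9, RBCS3B was at -0.36 and RCA at 0.19, with 0 up and 4 down, beside 18% and 19.5% of loci. The median of the 10 in that table was -0.83 against T9, below the -0.05 of all its loci. All 43 columns of that table end at 1 common maximum, which is RBCS1A in 22 of them, and the part of this in the difference was not tested.

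**Figure D2:**
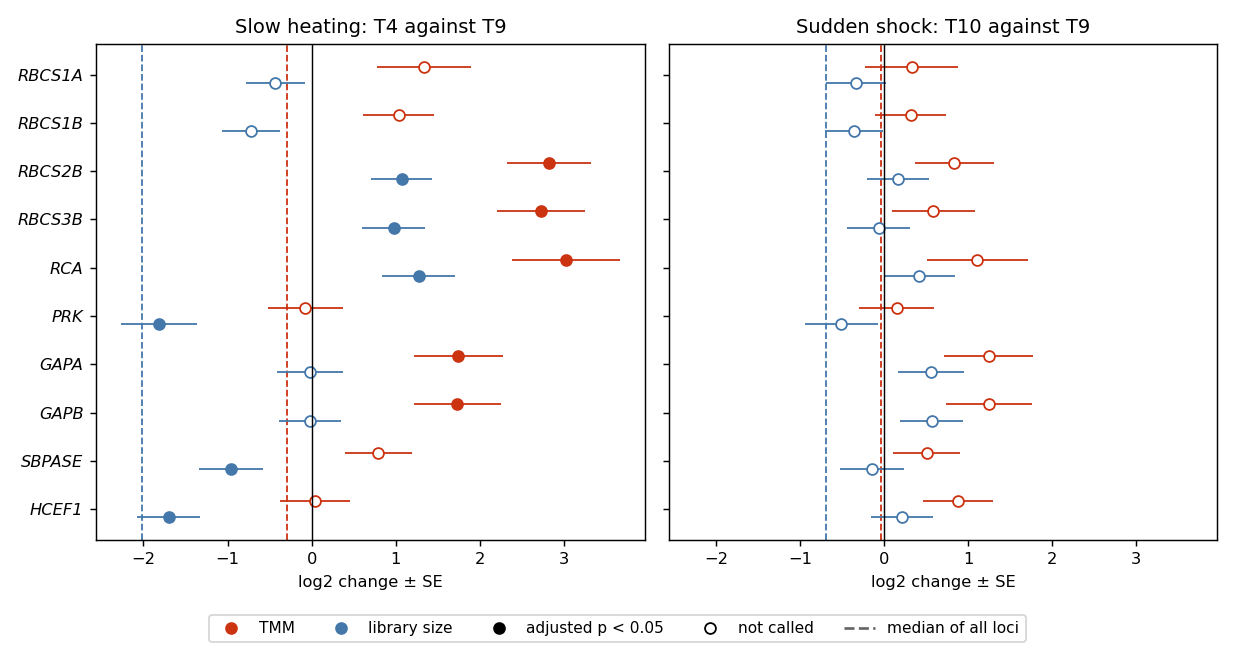
Log2 change ± standard error of each gene for T4 against T9 and for T10 against T9, with TMM (red) and library size scaling (blue). Filled points passed at an adjusted p under 0.05, and dashed lines mark the median of all loci tested. At T4 all 10 genes lie right of the dashed line of their own scaling, and RCA, RBCS2B and RBCS3B are filled under both.

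Ratios of counts within a plate do not depend on scaling, and they showed how the members moved against each other. RCA counts divided by RBCS1A counts were 0.331 and 0.343 at T1, 0.877 and 0.544 at T2, 1.47 and 0.976 at T3 and 1.37 and 1.39 at T4. Over the 12 plates sampled at 22 °C the ratio ran from 0.241 to 0.530 (median 0.307), so the 4 plates of T3 and T4 and the T2 plates all lay above every 22 °C plate. A ratio above 1 does not mean more RCA transcripts, because RCA is the longer gene. Per coding kilobase, RBCS1A remained higher at T4, with means of 69148 against 36234 TMM-CPM. RCA against PRK moved further, from 4.56 and 5.87 at T1 to 47.8 and 36.4 at T4. The sudden shock gave RCA to RBCS1A ratios of 0.938 and 0.512 at T10 and 0.531 and 0.406 at T7. In both batches T10 lay below T3 and T4, and T10 and T7 overlapped the 22 °C range in part.

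The makeup of the small subunit counts shifted as well. These genes have nearly equal coding lengths (543 to 561 bases). RBCS1A held 68.9% and 75.2% of their counts at T1, 55.3% and 59.7% at T3 and 54.6% and 55.3% at T4. RBCS3B took up most of the difference, with 17.9% and 16.2% at T1, 32.5% and 30.6% at T3 and 30.4% and 32.8% at T4. At 22 °C RBCS3B held 9.06% to 17.9%, so its T2, T3 and T4 plates lay above every 22 °C plate. RBCS2B held 13.5% and 10.3% at T4 against 9.54% and 5.65% at T1, and RBCS1B, the least abundant, went from 3.6% and 3.02% to 1.54% and 1.58%. At T10 RBCS3B stood at 17.1% and 19.9% and at T7 at 14.9% and 13.4%. These are descriptions of counts without a test, and reads that align to several copies are not in them where they were set apart. At T2 and T6, tube 2 of batch 2 lay far above the other tubes in RBCS1A and RBCS3B, and the batch 2 values of those time points include it.

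**Figure D3:**
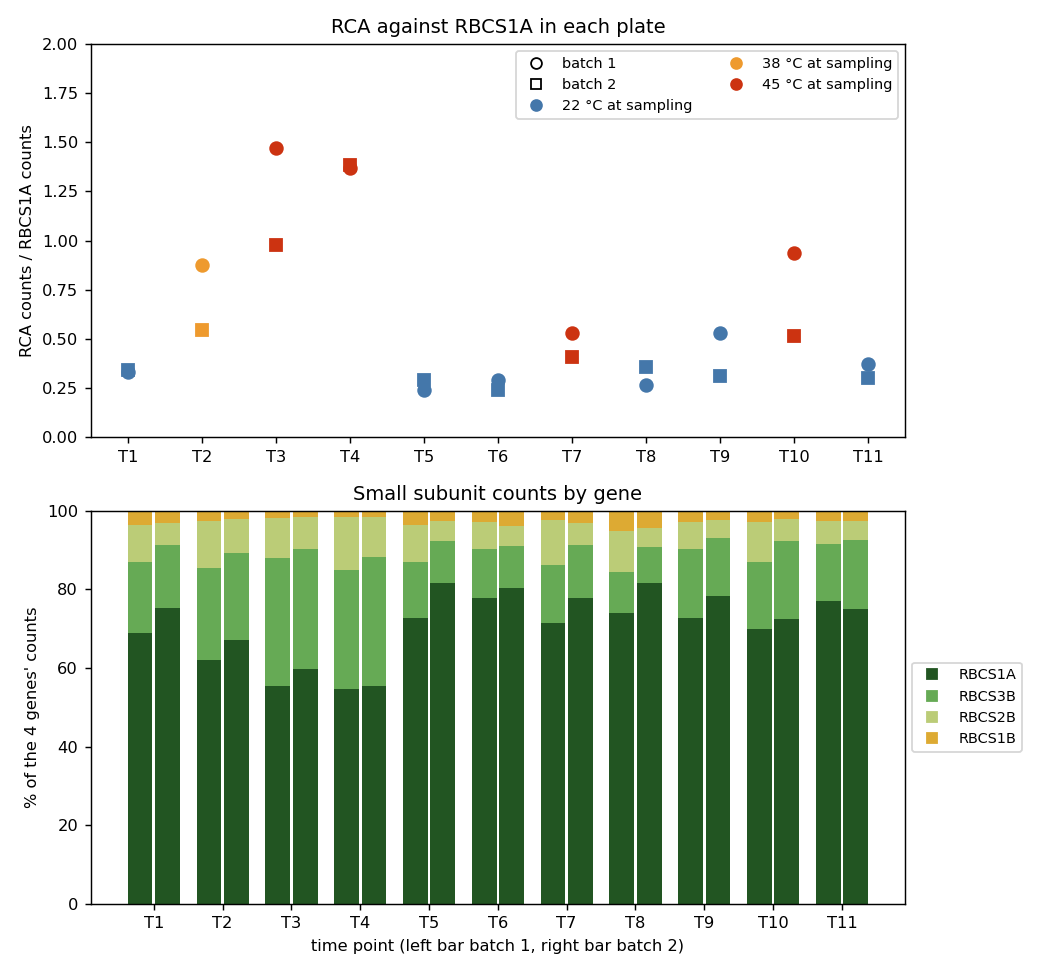
Top, RCA counts divided by RBCS1A counts in each plate (circles batch 1, squares batch 2, colour for temperature). Bottom, the percentage of the small subunit counts held by each gene, batch 1 left and batch 2 right. The ratio is highest at T3 and T4, where RBCS1A holds its smallest share (54.6% to 59.7%) and RBCS3B its largest (30.4% to 32.8%).

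The remaining small subunit values filled in the course of heating. RBCS1A had 16522 and 28189.8 TMM-CPM at T2, 29361 and 29558 at T3 and 42604 and 32491 at T4. Plain CPM of the same plates was 18929.5 and 27502, 12866 and 15629 and 15399.8 and 14551, so the T4 plates were the highest of these with TMM, while in plain CPM both T2 plates lay above the T3 and T4 plates. RBCS1B had 637 and 821 TMM-CPM at T1 and 1202 and 925 at T4, with overlapping plates at T1 and T2 (715 and 839). RBCS3B had 6217 and 9263 at T2 and 17278 and 15147 at T3, between its T1 and T4 values.

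The Calvin cycle genes did not move alike. With TMM, the log2 changes of GAPA (1.75) and GAPB (1.74) at T4 against T9 lay between those of RBCS3B (2.73) and RBCS1A (1.34). SBPASE (0.79), HCEF1 (0.04) and PRK (-0.08) had the lowest estimates of the set in that comparison. GAPA had 1467 and 2190.3 TMM-CPM at T1, 5105 and 2584 at T3 and 6981 and 3397 at T4, and GAPB had 1735 and 2153, 5644 and 2567 and 8906 and 3939.6. In both genes the T4 plates of batch 1 were above those of batch 2. SBPASE, a branch point enzyme of acceptor regeneration, had 489 and 835 at T1, 1438 and 1231 at T3 and 1363 and 1203 at T4 (log2 change at T4 against T1 0.96 ± 0.40, adjusted p = 0.0669). HCEF1 had 656 and 484 at T4 and 1169 and 859 at T10, with every T10 plate above every T4 plate. PRK had 1481 and 1389 at T10, 698 and 851 at T7 and 1608 and 984 at T9.

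By T5, 2 days after acclimation, most of these transcripts were lower again. RCA had 3289 and 2718 TMM-CPM and RBCS3B had 2707 and 1256, below both of their T4 plates. Against T4, 7 of 10 fell and 0 rose, with log2 changes for RCA (-4.10 ± 0.67), RBCS3B (-3.44 ± 0.54), RBCS2B (-2.91 ± 0.50), GAPA (-2.26 ± 0.54), GAPB (-2.01 ± 0.52), RBCS1A (-1.70 ± 0.57) and RBCS1B (-1.09 ± 0.42). Of all loci 19.3% fell and 25.3% rose. By library size RCA (-2.31 ± 0.44), RBCS3B (-1.65 ± 0.38) and RBCS2B (-1.13 ± 0.37) fell, while HCEF1 (1.41 ± 0.38) and PRK (1.32 ± 0.44) rose, against 3.05% and 74.5% of all loci, whose median moved from 0.28 to 2.05. In the authors' deposited table the change of RCA was -0.48 and that of RBCS1A 1.82, and 1 of 10 passed, as higher, and 0 as lower, beside 20.3% and 19.7% of loci. The mesophyll markers fell in 4 of 4 with TMM and in 0 of 4 by library size, with sums of 74669 and 38397 TMM-CPM at T4 and 9837 and 5625 at T5, and their part in the members' changes was not tested. Without T5 of batch 2 the calls were 4 (RCA, RBCS3B, RBCS2B and GAPA).

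Other genes of the pathway were read from lists drawn up by function. Of 15 further Calvin cycle genes, 6 rose and 2 fell at T4 against T9, among them the triose phosphate isomerase TPI (1.88 ± 0.32, 0.13 ± 0.22 with library size) and the phosphoglycerate kinase PGK2 (2.36 ± 0.40, 0.62 ± 0.30). By library size 0 rose and 9 fell, and their median went from 0.36 to -1.38. Over all loci 18.7% rose and 24.2% fell with TMM (median -0.30), and 3.38% and 74.8% by library size (median -2.02), so the median of this list lay above that of all loci on both scales. Of 17 genes for Rubisco folding and assembly, 8 rose and 3 fell (5 and 11 with library size). The plastid chaperonin subunits CPN60B2 (5.71 ± 0.75) and CPN60A1 (4.22 ± 0.51), which fold newly made Rubisco large subunits among other proteins, rose under both scalings (3.97 ± 0.59 and 2.47 ± 0.34 with library size). Of 11 photorespiration genes, whose pathway salvages the product of Rubisco's reaction with oxygen, 6 rose and 0 fell with TMM and 1 rose and 3 fell with library size. The mesophyll markers rose in 4 of 4 with TMM and in 0 of 4 with library size, and their summed level was 14144 and 13298 TMM-CPM at T9 and 74669 and 38397 at T4. Their part in the members' changes was not tested. In bulk leaves, a change in the share of mesophyll cells and a change in RNA per cell cannot be told apart, here and in the other comparisons.

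The large subunit gene RBCL, in the chloroplast genome, had 88.1 and 31.9 TMM-CPM at T9, 431 and 499.8 at T4 and 1831 and 3215 at T10. It rose at T10 against T9 (5.19 ± 0.95, and 4.54 ± 0.92 with library size) and at T7 against T6 (5.37 ± 0.95). With TMM it also rose at T4 against T9 (2.81) and T1 (3.40), but by library size in neither. At T8 it fell against T11 under both scalings (-3.82, and -3.31 with library size) and was not called against T6 (2.01). All organelle genes together held 0.123% and 0.0515% of gene counts at T9 and 0.666% and 1.51% at T10. Chloroplast mRNAs mostly lack the long poly(A) tails by which the kit selects mRNA. These values therefore need not follow the amount of RBCL mRNA, and they are not set against the RBCS levels.

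Direct transfer to 45 °C was the second kind of heat. T10 and T7 were sampled 9 h into the light and T9 and T6 at 7.5 h. The parts of hour and heat in these comparisons cannot be told apart. In non-acclimated leaves RCA had 8220.2 and 4521 TMM-CPM at T9 and 18147 and 9334 at T10, higher in each batch. GAPB had 2380.1 and 1355 and then 7201 and 2306, and GAPA had 1765 and 1243 and then 5332 and 2090.3, with batch 1 the higher in both. EdgeR called 0 of 10 at T10 against T9 (2 had an unadjusted p under 0.05, and DESeq2 called GAPB alone). GAPB had 1.25 ± 0.51 (adjusted p = 0.13) and RCA 1.11 ± 0.60 (adjusted p = 0.248). Of all loci 3.76% rose and 4.46% fell with edgeR, and 5732 of 20980 had an unadjusted p under 0.05. DESeq2 called 1608 loci as higher and 1780 as lower. In acclimated leaves (T7 against T6) edgeR likewise called 0, against 4.46% and 3.78% of all loci that rose and fell. An unadjusted p under 0.05 was found in 3 of 10 and in 5812 of 20980 loci. DESeq2 called 3 (GAPA, GAPB and RCA) as higher, when 1746 loci rose and 1616 fell. RCA had 3176 and 4116 at T6 and 10271 and 6927 at T7 (1.22 ± 0.60), and GAPA 1.65 ± 0.53 (adjusted p = 0.0656). With TMM all 10 genes had positive estimates in each of these comparisons, while by library size 5 of 10 (T10 against T9) and 4 of 10 (T7 against T6) were negative. The mesophyll markers summed to 29792 and 26614 TMM-CPM at T10 and 15947 and 16799 at T7, and their part was not tested.

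Whether acclimation changed the response to the shock was tested as the difference of these changes. EdgeR called 0 of 10 (no member under 0.05 before adjustment, and 0 with DESeq2), and 0% of all loci were called in either direction. The estimates ran from -0.17 (RBCS1B) to 0.41 (GAPA), with RCA at 0.11 ± 0.84. The standard errors were 0.56 to 0.84 with 2 plates per group. A difference has to be well above its standard error to pass, so differences larger than these could also be missed. The batches had the same sign in 3 of 10 genes with TMM, and RCA had 0.55 in batch 1 and -0.29 in batch 2. T7 against T10, at the end of the shock, also gave 0 of 10 (unadjusted, 0 were under 0.05, and DESeq2 called 0), beside 0.0524% and 0.00477% of all loci that rose and fell, with PRK at -0.89 ± 0.45 and RCA at -0.67 ± 0.60. Acclimated and never-heated leaves before the shock (T6 against T9) gave 0 of 10 as well (no member under 0.05 before adjustment, and 0 with DESeq2). There 0.0143% of loci rose and 0.00477% fell. RCA had 3176 and 4116 TMM-CPM at T6 and 8220.2 and 4521 at T9, so T6 was lower in both batches (-0.78 ± 0.60, adjusted p = 0.912).

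The 2 ways of reaching 45 °C were set side by side in T10 and T4, which differ by 1.5 h of light and 4 days of age. RBCS3B had 4726 and 5001 TMM-CPM at T10 and 23709 and 19287 at T4, and RBCS2B 2847 and 1399 and 10582 and 6038. T10 was lower in every plate of RBCS3B, RBCS2B and RCA. These 3 of 10 passed as lower, at -2.14 ± 0.51 (adjusted p = 0.00655), -1.99 ± 0.48 and -1.92 ± 0.61, and 0 as higher, against 12.1% and 16.2% of all loci. By library size RBCS3B (-1.04 ± 0.38) and RBCS2B (-0.91 ± 0.37) were still called lower, RCA was at -0.85 ± 0.43, and HCEF1 (1.92 ± 0.38) and PRK (1.31 ± 0.44) were called higher, against 2.99% and 51.3% (median of all loci 1.24, and 0.17 with TMM). None of the 10 passed as lower in the authors' deposited table and 2 (GAPB and HCEF1) passed as higher, beside 11.7% and 12.1% of loci, with RBCS3B at -0.22 and RCA at -0.31. Without T10 of batch 2 edgeR called 0, and without T10 of batch 1 it called RBCS2B only.

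At 2 days after the shock the acclimated leaves had the lowest mean TMM-CPM of the whole regime in all 10 genes. RBCS1A had 3225 and 5791 TMM-CPM at T8 and 14203 and 16894 at T11. RBCS3B had 450.4 and 643 at T8 and 2657 and 3979 at T11, and RCA 860.2 and 2078 and 5306 and 5089. In these 3 genes every T8 plate lay below every T11 plate. GAPA had 348 and 630.5 at T8 and 2448 and 1483 at T11. HCEF1, the fructose bisphosphatase, had 174 and 212 and 473 and 613. Plain CPM gave the same order: RBCS1A 5009 and 8430.4 against 14186 and 18456, and RCA 1336 and 3025 against 5299.5 and 5560.0.

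Of the 10 genes 8 fell at T8 against T11 and 0 rose, when 13.4% of all loci fell and 13.9% rose. RBCS3B had -2.60 ± 0.52 (adjusted p = 0.00326), GAPA -1.89 ± 0.54, RBCS1A -1.804 ± 0.57 and RCA -1.799 ± 0.61 (adjusted p = 0.0417). GAPB (-1.55 ± 0.51), HCEF1 (-1.50 ± 0.42), RBCS2B (-1.49 ± 0.48) and SBPASE (-1.28 ± 0.41) passed too. PRK (-1.20 ± 0.45, adjusted p = 0.0626) and RBCS1B (-0.99 ± 0.42, adjusted p = 0.092) did not. The median of the 10 was -1.52, against 0.01 for all loci. With library size scaling, 5 fell (RBCS1A, RBCS3B, RCA, GAPA and GAPB) and 0 rose, against 5.85% and 25.6% of all loci, and the medians were -1.02 and 0.54. All 10 were lower in each batch under both scalings. Within batches RCA differed by -2.62 and -1.29 on the log2 scale and RBCS3B by -2.56 and -2.63 (batch 1 and then batch 2). The count was 0 without T8 of batch 1, 3 without T11 of batch 1 and 2 without T11 of batch 2. In the authors' deposited table all 10 were lower too, and 2 passed (RBCS3B and GAPA), beside 16.8% of loci that fell and 14.6% that rose. A fit to these 4 plates alone, with 1 residual degree of freedom, called 0 of 10 and 0 of all 19489 loci it tested.

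The same reading against T6, the acclimated leaves before the shock, does not use T11. RCA had 3176 and 4116 TMM-CPM at T6 and RBCS1A 10839 and 17106, above their T8 plates. All 10 genes were lower at T8 in both batches and under both scalings, with a median of -1.15 against 0.01 for all loci. An unadjusted p under 0.05 was found in 7 of 10 and in 4551 of 20980 loci. DESeq2 called 4 as lower, when 1262 loci fell and 880 rose. With edgeR RBCS3B alone passed (-1.87 ± 0.51, adjusted p = 0.0488), when 3.27% of all loci fell and 1.37% rose. That call was lost on leaving out T6 of batch 1, T6 of batch 2, T8 of batch 1 or T8 of batch 2. By library size RBCS1A and RBCS3B passed, beside 2.65% of all loci that fell and 1.11% that rose. In both genes the T6 plate of batch 2 includes tube 2, which lay far above the other T6 tubes. That tube had 32760.4 TMM-CPM in RBCS1A (the others 9859 to 12293) and 4155 in RBCS3B (the others 1515 to 1964). T11 against T9 had 0 called of 10 (unadjusted, 0 were under 0.05, and DESeq2 called 0), beside 3.02% and 3.67% of all loci that rose and fell. PRK had -0.76 ± 0.45 there and RCA -0.28 ± 0.59, and the batches differed in sign for 7 of 10 genes with TMM.

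**Figure D4:**
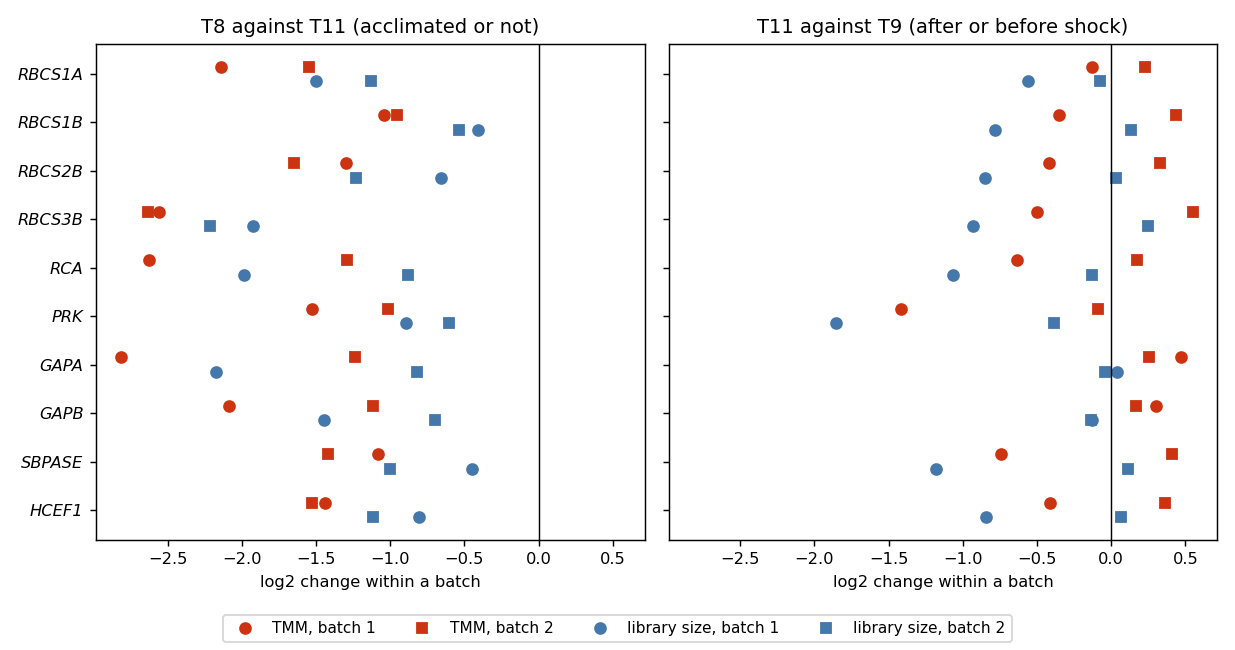
Log2 change within each batch for T8 against T11 and for T11 against T9, with TMM (red) and library size (blue), circles for batch 1 and squares for batch 2. All points of T8 against T11 lie below 0, whereas the points of T11 against T9 fall on both sides of it.

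Photosynthesis genes beyond the set were low at T8 too. The mesophyll markers fell in 4 of 4 at T8 against T11 under both scalings, with a summed level of 868 and 2598 TMM-CPM at T8, 15858 and 14678 at T11 and 5877 and 10176 at T6. Root markers summed to 554 and 762 at T8 and 159.6 and 181 at T11, where 1 of 4 rose and COBL9 was at 0 counts in both groups. Phloem markers summed to 110.0 and 76.3 and 82.4 and 41.2, and guard cell markers to 36.4 and 15.9 and 7.95 and 19.7. By library size 2 of 2 phloem and 1 of 4 guard cell markers rose, and with TMM none of either. The part of any of these in the members' levels was not tested. Of the other Calvin cycle genes 8 of 15 fell and 0 rose (6 and 0 with library size), led by CFBP2 (-1.31 ± 0.32), a plastid fructose bisphosphatase, and TPI (-1.28 ± 0.31). Of the assembly genes 9 of 17 fell (5 with library size), among them the Rubisco chaperone BSD2 (-1.62 ± 0.33) and the cochaperonin CPN10-2 (-1.47 ± 0.27). Thioredoxins activate several Calvin cycle enzymes in the light, and the thioredoxin TRXF2 fell by 2.58 ± 0.35, with 3 of 4 redox genes lower (1 with library size). Photorespiration had 7 of 11 lower (4 with library size), with the glycine decarboxylase subunits GLDT (-1.97 ± 0.41) and GDCH (-1.96 ± 0.47). Of 3 regulators of these genes, GLK2 alone fell (-1.87 ± 0.37), and the median of the 3 was -0.92. Medians of these lists were -1.31, -1.24, -1.23 and -1.34 for Calvin cycle, assembly, redox and photorespiration, beside 0.01 for all loci with TMM. By library size they were -0.81, -0.71, -0.72 and -0.83, beside 0.54 for all loci. Of all loci 13.4% fell and 13.9% rose with TMM, and 5.85% fell and 25.6% rose by library size. At T8 against T6, without T11, 0 of 15 Calvin cycle, 0 of 17 assembly and 0 of 11 photorespiration genes were called with TMM. There 1 of 4 redox genes, 1 of 3 regulators and 1 of 4 mesophyll markers fell, beside 3.27% of all loci. Medians in the order above were -0.73, -0.39, -0.60 and -0.80, beside 0.01 for all loci. By library size 1 of 11 photorespiration genes and 3 of 4 mesophyll markers fell, beside 2.65% of all loci.

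At T5 against T9, edgeR called 0 of 10 (no member under 0.05 before adjustment, and 0 with DESeq2), against 0.224% and 0.219% of all loci that rose and fell, with RCA at -1.07 ± 0.60 (adjusted p = 0.582). T9 and T1, unheated leaves that differ in age and hour, gave 0 of 10 (no member under 0.05 before adjustment, and 0 with DESeq2), against 1.6% and 0.315%. HCEF1 had 311 and 466 TMM-CPM at T1 and 629 and 477 at T9 (0.46 ± 0.41).

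Across the 22 plates the members' levels were correlated to different degrees. Log2 levels of GAPA and GAPB, subunits of one enzyme, had r = 0.969, and those of RBCS3B and RCA 0.965, while RBCS3B and HCEF1 had 0.592. Against the mean of the other 9, Pearson's r was lowest for HCEF1 (0.719) and PRK (0.797) and highest for RBCS3B (0.950). Outside the set, the loci whose levels were most like the members' mean were GLDT (AT1G11860, r = 0.984), the carbonic anhydrase CA1 (0.978), AT2G46820 (0.975), the photorespiratory reductase AT1G68010 (0.971) and AT1G74070 (0.970). Spearman's rho was 0.973, 0.965, 0.948, 0.977 and 0.930. Without T8 of batch 1 and T4 of batch 1, the plates farthest from the median, r was 0.973, 0.968, 0.957, 0.962 and 0.950. Plates share time points, batches and scaling factors, so these values describe likeness and carry no test.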

How the data were processed

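Reads per locus were deposited as counts, library by library, made by the authors with HTSeq after alignment, for which TopHat2 2.0.14, Bowtie2 2.1.0.0 and SAMtools are listed, per the submitters' processing notes, with TAIR10 as the genome. The library kit keeps strand, but no source used here gives the strand setting used in counting. HCEF1 overlaps AT3G54060 on the opposite strand by 167 bases, so its counts are uncertain. The authors' deposited log2 values (18864 loci, with no source for the normalization) served only as an alternative. All 43 of their columns share 1 maximum, RBCS1A is that maximum in 22, and 1 further column matched no sample and was not used.

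Tubes of a plate were summed (T3 of batch 1 has 1 tube). EdgeR 4.0.16 in R 4.3.3 fitted 1 quasi-likelihood model to all 22 plates with terms for time point and batch, TMM scaling and a filter on low counts (filterByExpr, smallest count 10). P-values were adjusted by Benjamini-Hochberg over 20980 loci, and a gene rose or fell if its adjusted p was under 0.05. The common biological coefficient of variation was 0.308, with 10 residual degrees of freedom. Each batch holds 1 plate of each time point, so the batch number pairs plates by the labels and the batch term is a block. Alternatives were library size scaling, DESeq2 1.42.0, no filter, no batch term, only the plates compared, limma 3.58.1 on the authors' values, and each plate left out. The fit was tested on simulated data.

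The protocol text uses T9 for different plants, and roles were taken from the time point and temperature labels. All members were to be named, with up to 3 genes per list by smallest p and the 5 loci most like the members. The members and lists were chosen with earlier results of these data known. Whether plates of one time point came from separate sowings is not stated beyond the batch. Sequences came from the RefSeq copy of TAIR10.1, read with Biopython 1.88.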

Additional observations from a re-analysis of the deposited data

Results flagged for a closer look

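Libraries, not plates, were screened here, so the 4 values of a time point are 2 tubes of each of 2 plates. Among 100 sets of 4 libraries, 10 had 1 library whose gap to the nearest other was over 0.829 of the whole range, a limit that chance passes in about 1 of 20 sets. At T1, the library of batch 2, tube 2 lay apart for RBCS1B (1036 TMM-CPM, the others 630.0 to 685). At T2, the library of batch 2, tube 2 lay apart for RBCS1A (47901 TMM-CPM, the others 14172 to 18804), RBCS2B (5325 TMM-CPM, the others 2931 to 3223), RBCS3B (14319 TMM-CPM, the others 6219 to 6904). At T4, the library of batch 2, tube 1 lay apart for RBCS3B (14126 TMM-CPM, the others 22423 to 23436). At T6, the library of batch 2, tube 2 lay apart for RBCS1A (32760.4 TMM-CPM, the others 9859 to 12293), RBCS1B (1557 TMM-CPM, the others 377 to 520.2), RBCS3B (4155 TMM-CPM, the others 1515 to 1964). At T8, the library of batch 2, tube 2 lay apart for HCEF1 (263 TMM-CPM, the others 161 to 174). At T11, the library of batch 2, tube 2 lay apart for RBCS1B (849 TMM-CPM, the others 456 to 486). Of these libraries, 9 of the 10 values belong to the second tube of batch 2, and the other is the first tube of batch 2 at T4. At T2 and T6 several small subunit genes lay apart in the same library. The plate values of RBCS1A and RBCS3B at T2 and T6 include these tubes. No member's response to the shock differed between acclimated and non-acclimated leaves past the threshold.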

How the results depend on the processing

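Of the 10 genes, the number called (up and down) moved by over 1.5 times from the main count, in all or in either direction, in the following cases. With library size scaling the number was 4 (1 up, 3 down) for T3 against T1, 5 (1 up, 4 down) for T4 against T1, 6 (3 up, 3 down) for T4 against T9, 5 (2 up, 3 down) for T5 against T4, 4 (2 up, 2 down) for T10 against T4, 2 (0 up, 2 down) for T8 against T6, 5 (0 up, 5 down) for T8 against T11. With the authors' values the number was 5 (0 up, 5 down) for T3 against T1, 5 (0 up, 5 down) for T4 against T1, 4 (0 up, 4 down) for T4 against T9, 1 (1 up, 0 down) for T5 against T4, 2 (2 up, 0 down) for T10 against T4, 3 (0 up, 3 down) for T8 against T6, 2 (0 up, 2 down) for T8 against T11. With DESeq2 the number was 1 (1 up, 0 down) for T2 against T1, 5 (5 up, 0 down) for T3 against T1, 8 (8 up, 0 down) for T4 against T9, 1 (1 up, 0 down) for T10 against T9, 3 (3 up, 0 down) for T7 against T6, 4 (0 up, 4 down) for T8 against T6. In these comparisons DESeq2 called 1175, 9410, 9459, 3388, 3362 and 2142 of all 20980 loci. The main fit called 577, 8749, 9012, 1725, 1729 and 974. With no batch term the number was 3 (3 up, 0 down) for T4 against T1, 0 (0 up, 0 down) for T8 against T6. That fit called 7338 and 356 of all 20980 loci there, beside 8867 and 974 in the main fit. With only the plates compared the number was 1 (0 up, 1 down) for T7 against T10, 0 (0 up, 0 down) for T8 against T6, 0 (0 up, 0 down) for T8 against T11. These fits called 1751 of 18947, 605 of 19771 and 0 of 19489 loci. The main fit called 12, 974 and 5726 of 20980. With no filter on low counts the number was 0 (0 up, 0 down) for T8 against T6. There 861 of 26246 loci were called, beside 974 of 20980 in the main fit. Leaving out 1 plate at a time, the number ran from 0 to 4 for T3 against T1, 3 to 5 for T4 against T1, 3 to 5 for T4 against T9, 4 to 8 for T5 against T4, 0 to 2 for T10 against T4, 0 to 0 for T8 against T6, 0 to 6 for T8 against T11.

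With library size scaling, the log2 change was opposite in sign to the main value in 8 of 10 genes for T3 against T1, 7 of 10 genes for T4 against T1, 6 of 10 genes for T4 against T9, 5 of 10 genes for T5 against T4, 5 of 10 genes for T10 against T4, 0 of 10 genes for T8 against T6, 0 of 10 genes for T8 against T11. Those where the main or the alternative value passed the threshold are given here. In T3 against T1 these were RBCS1B -1.36, RBCS2B -0.024, PRK -1.25, HCEF1 -1.26. In T4 against T1 these were RBCS1B -1.31, PRK -1.59, GAPA -0.45, GAPB -0.29, SBPASE -0.86, HCEF1 -1.31. In T4 against T9 these were GAPA -0.019, GAPB -0.021, SBPASE -0.96, HCEF1 -1.70. In T5 against T4 these were RBCS1A 0.10, RBCS1B 0.70, PRK 1.32, HCEF1 1.41. With the authors' deposited log2 values, the log2 change was opposite in sign to the main value in 10 of 10 genes for T3 against T1, 10 of 10 genes for T4 against T1, 7 of 10 genes for T4 against T9, 8 of 10 genes for T5 against T4, 4 of 10 genes for T10 against T4, 0 of 10 genes for T8 against T6, 0 of 10 genes for T8 against T11. Those where the main or the alternative value passed the threshold are given here. In T3 against T1 these were RBCS1A -1.61, RBCS1B -1.43, RBCS2B -1.04, RBCS3B -1.02, RCA -0.70, PRK -1.50, GAPA -1.33, GAPB -1.55. In T4 against T1 these were RBCS1A -1.74, RBCS1B -1.27, RBCS2B -0.82, RBCS3B -1.06, RCA -0.26, PRK -1.63, GAPA -1.24, GAPB -1.33. In T4 against T9 these were RBCS1A -1.66, RBCS3B -0.36, GAPA -0.75, GAPB -0.94, HCEF1 -1.41. In T5 against T4 these were RBCS1A 1.82, RBCS1B 0.35, RBCS3B 0.013, GAPA 0.37, GAPB 0.81. In T10 against T4 these were GAPB 1.02.

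The batch term is the replicate block, and batch numbers come from the labels. Without the replicate block the calls were 3 (3 up, 0 down) for T4 against T1, 0 (0 up, 0 down) for T8 against T6 and 6 (0 up, 6 down) for T8 against T11. At T8 against T11 the fit without this block called 3506 of all 20980 loci, beside 5726 in the main fit. Over single genes and comparisons, 151 of 160 values kept their direction and side of the threshold without the block. The number was 141 of 160 with DESeq2, 93 of 160 with library size scaling and 66 of 160 with the authors' values. The cause of the moves was not tested. The lowest member plate value was 174 TMM-CPM (HCEF1).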
